A study of Mus musculus with 2 samples.

Results

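Mir103-1, Mir103-2 and Mir107 are the 3 mouse miRNA genes that lie in introns of pantothenate kinase (Pank) genes, and they are 3 of the 2202 miRNA genes in the tables. They were chosen by position in the GENCODE M21 annotation and by their sense read levels, already known from these libraries, so levels and replicate differences are given as a description with no test. Small RNA was sequenced from the adrenal gland of adult male mice of strain 5xFAD/CAST, aged 8 to 10 months, with RNA selected below 30 nucleotides. The name joins a transgenic Alzheimer's disease model with a wild-derived strain, and the labels do not say whether these mice carried the transgene. There were 2 libraries, numbered as biological replicates 1 and 2 of 1 group. They share a donor record but have different biosample records, and whether they come from 2 animals is not stated. The spread between them may therefore be partly technical.

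A miRNA gene is transcribed as a hairpin that is cut to a short duplex with arms called 5p and 3p, and 1 arm usually guides the silencing complex to target mRNAs through its seed, bases 2 to 8. In this family the 3p arm is the usual guide. Pantothenate kinases catalyse the first committed step of coenzyme A synthesis, and intronic miRNAs of this kind can be made from the host transcript. The miRNAs miR-103 and miR-107 are known for effects on insulin sensitivity and lipid metabolism and for lowering Dicer, the enzyme that makes miRNAs. The adrenal cortex uses lipid stores for steroid synthesis, while the medulla holds neuroendocrine chromaffin cells.

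The mature sequences, from RefSeq on GRCm38.p6, are shown because they differ by single bases that set which reads can be assigned to 1 gene. Capitals mark the seed.
miR-103-3p, from Mir103-1 and Mir103-2: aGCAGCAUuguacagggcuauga
miR-107-3p: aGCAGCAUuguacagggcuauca
miR-103-1-5p: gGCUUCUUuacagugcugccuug
miR-103-2-5p: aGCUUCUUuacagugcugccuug
miR-107-5p: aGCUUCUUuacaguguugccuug

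Counting from 1 at the 5′ end, miR-107-3p departs from miR-103-3p by the single change G22C, the last base but one. The 3p arms of Mir103-1 and Mir103-2 were identical over all 23 bases. On the 5p side, Mir103-2 departs from Mir103-1 by G1A, and Mir107 departs from Mir103-2 by C16U. Among 1738 mature entries of 1058 genes in the RefSeq table, the 3p seed GCAGCAU was found in these 3 genes and no other. The same was true of their 5p seed, GCUUCUU.

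To show where the loci can be told apart, the stem loops are given from the first base of the 5p arm to 5 bases beyond the 3p arm, on the strand of each gene. Capitals mark the bases at which the 3 genes are not all alike.
Mir103-1, chr11:35782410-35782474, plus strand: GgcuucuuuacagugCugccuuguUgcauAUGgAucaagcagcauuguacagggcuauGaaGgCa
Mir103-2, chr2:131288066-131288130, plus strand: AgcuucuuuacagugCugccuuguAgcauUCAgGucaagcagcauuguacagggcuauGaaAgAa
Mir107, chr19:34820695-34820759, minus strand: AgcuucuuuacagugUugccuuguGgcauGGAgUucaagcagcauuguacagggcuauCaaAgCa

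Over these 65 bases the genes were 86.2% to 89.2% identical. Mir103-1 and Mir103-2 differed at 8 positions, Mir103-1 and Mir107 at 9, and Mir103-2 and Mir107 at 7. Most of the differing positions lay in the loop or at the ends.

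The hosts shared the same layout. Mir103-1 (ENSMUSG00000065553.1) spans 35782396 to 35782481 on the plus strand of chromosome 11 in an intron of Pank3. Mir103-2 (ENSMUSG00000065563.1) spans 131288052 to 131288137 on the plus strand of chromosome 2 in an intron of Pank2. Mir107 (ENSMUSG00000065594.1) spans 34820687 to 34820773 on the minus strand of chromosome 19 in an intron of Pank1. All coordinates are on GRCm38 (mm10). In the principal transcript of each host, the hairpin lay on the host's strand in intron 5 of 6. Exons 2 to 6 had the same lengths in the 3 hosts, at 353, 254, 177, 124 and 126 bases. The introns themselves differed, with lengths of 1740 bases in Pank3, 5801 in Pank2 and 7282 in Pank1. Each hairpin sat nearer to exon 5 than to exon 6, at 688 bases from exon 5 in Pank3, 454 in Pank2 and 326 in Pank1. The map of the host genes shows this shared position.

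**Figure D1:**
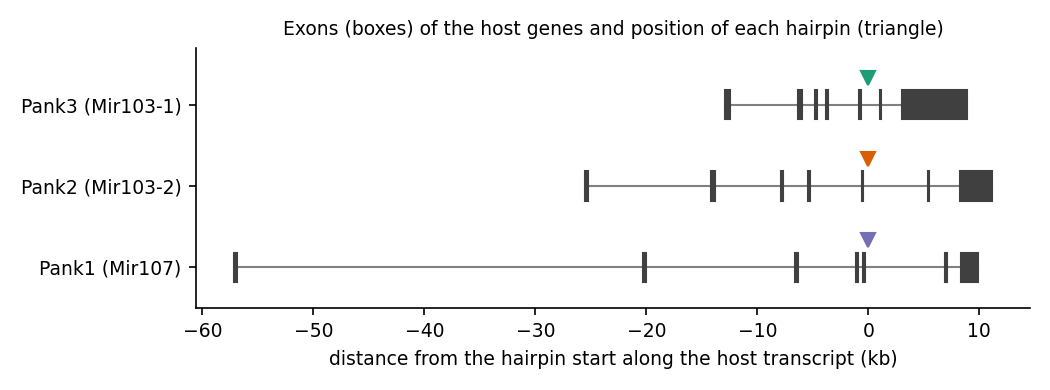
Principal transcripts of the 3 host genes, drawn by distance in kb from the start of the hairpin along the direction of transcription. Boxes are exons and the triangle marks the hairpin, which follows exon 5 in each host.

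The authors' tables assign no gene to a read that maps to several places, so the sequences set which reads could be counted. A read that starts at the first base of the 3p arm was found in all 3 hairpins up to a length of 21 bases. From 22 bases it named Mir107 alone when it came from that gene. A read of miR-103-3p fitted both Mir103 hairpins up to 24 bases and named 1 of them from 25 bases, which is 2 bases beyond the annotated mature end. On the 5p arm, reads from the first base named Mir103-1 already at 15 bases, the shortest length tried. They named Mir103-2 and Mir107 from 16 bases. A full-length 5p read of any of the 3 genes, a full-length 3p read of Mir107, and no full-length 3p read of the Mir103 genes could therefore be assigned by exact match to the annotated hairpins. The remaining genome was not searched, and the counts do not say which arm a read came from.

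**Figure D2:**
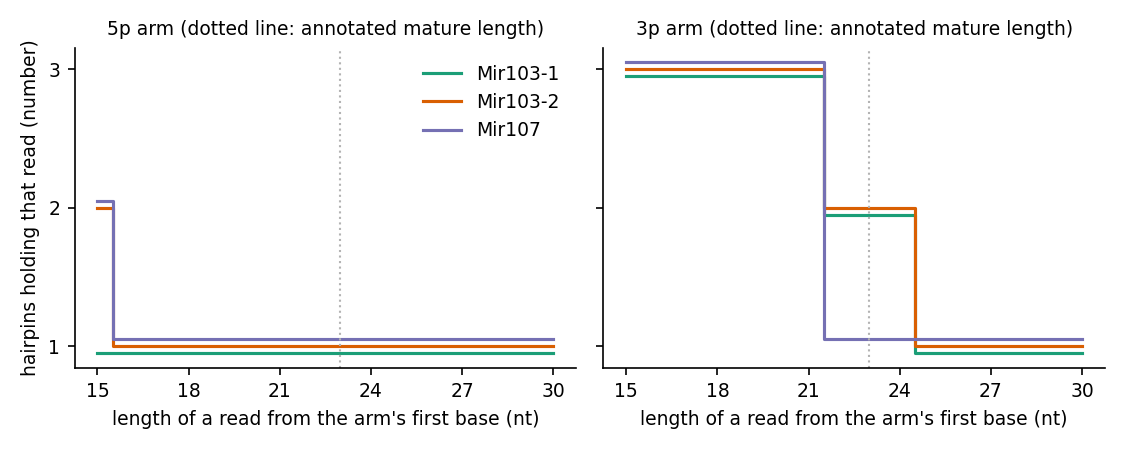
Number of annotated hairpins, its own included, that hold a read of the given length in nucleotides starting at the first base of the 5p arm (left) or 3p arm (right) of each gene. Lines are offset slightly for visibility, and the dotted line marks the annotated length of 23; on the 3p arm the Mir107 line drops to 1 hairpin at 22 and the Mir103 lines at 25.

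Of all windows of 18 to 23 bases that lie inside an arm, 21 of 21 on the 3p arm of either Mir103 gene occurred in another hairpin, beside 10 of 21 on the 3p arm of Mir107. On the 5p arm the counts were 15 of 21 for either Mir103 gene and 0 of 21 for Mir107. The 2 Mir103 genes shared their 5p windows with each other only. With 1 mismatch allowed, every window of all these arms had a match among the other members.

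Libraries 1 and 2 held 13209343 and 6482170 reads, of which 6783227 and 3084602 were sense reads of miRNA genes. Multimapping reads made up 30.3% and 32.1% of all reads. Levels are given as CPM, the sense count per 1000000 sense miRNA reads of the library, with exact Poisson 95% intervals that cover counting error only. A count of 0 allows up to 3 reads, or 0.442 CPM in replicate 1 and 0.973 CPM in replicate 2. Summed over their lists, the neuroendocrine markers Mir375, Mir7-1, Mir7-2 and Mir7b stood at 63615 and 87243 CPM, and the endothelial Mir126a at 92610 and 52519 CPM, in replicates 1 and 2. The leukocyte markers summed to 610 and 693 CPM. No marker of the adrenal cortex was in the lists.

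Mir107 carried nearly all uniquely assigned reads of the family. It held 11086 reads in replicate 1 and 1175 in replicate 2, which is 1634 CPM (1604 to 1665) and 381 CPM (359 to 403). The mean was 1008 ± 886 CPM (SD, n = 2), rank 70 of all genes. Replicate 1 was the high library by far more than counting error, and the SD was close to the mean.

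Mir103-2 held 102 reads in replicate 1 and 8 in replicate 2, or 15.04 CPM (12.3 to 18.3) and 2.59 CPM (1.12 to 5.11). Its mean was 8.82 ± 8.80 CPM (n = 2). Replicate 1 was again the high library and the counting intervals did not overlap.

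Mir103-1 held 19 reads in replicate 1 and 1 in replicate 2, or 2.80 CPM (1.69 to 4.37) and 0.324 CPM (0.00821 to 1.81). Its mean was 1.56 ± 1.75 CPM (n = 2), and the value of replicate 2 lay under the level of 3 reads. The intervals overlapped slightly for this gene. The 3 genes had 0 reads on the opposite strand, and their counts were the same in the column for both strands.

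Mir107 stood above Mir103-2 by ratios of 109 and 147 in replicates 1 and 2, and above Mir103-1 by 583 and 1175. In both libraries these gaps were wider than the replicate differences of the genes compared. Mir103-2 was above Mir103-1 by ratios of 5.37 and 8.00, which on the scale of log2(CPM + 1) are gaps of 2.08 and 1.44. Both are smaller in size than the replicate difference of Mir103-2 on that scale, which was −2.16, so the 2 Mir103 genes were not ordered. These are ratios of uniquely assigned reads. A full-length 3p read of either Mir103 gene matches both, and reads that map to several places were assigned to no gene. The settings of the authors' aligner are also not known here. No order of the mature miRNAs is therefore read from the ratios.

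Shares were taken of the uniquely assigned reads of the family, and are not the make-up of its mature miRNAs. Full-length guide-arm reads of the Mir103 genes could not be assigned to 1 gene by exact match. Mir107 made up 98.9% (exact 95% interval 98.7 to 99.1) in replicate 1 and 99.2% (98.6 to 99.7) in replicate 2. Mir103-2 made up 0.910% (0.743 to 1.10) and 0.676% (0.292 to 1.33), and Mir103-1 0.170% (0.102 to 0.265) and 0.0845% (0.00214 to 0.470). For each gene the intervals of the 2 libraries overlapped. The shares were not compared directly between libraries, and overlap alone does not decide whether they differed. The overlap does not show that the shares were alike, because Mir103-1 and Mir103-2 held 1 and 8 reads in replicate 2. Uniquely assigned reads of the family were 0.165% of sense miRNA reads in replicate 1 and 0.0384% in replicate 2.

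All 3 genes were lower in replicate 2. Without a pseudocount, Mir107 was 4.29-fold lower (exact 95% interval 4.04 to 4.56), Mir103-2 5.80-fold lower (2.83 to 13.8) and Mir103-1 8.64-fold lower (1.37 to 359). These intervals come from read counts of 2 libraries and say nothing of animals. They overlapped between Mir103-2 and Mir103-1 and included the Mir107 value in both cases. On the scale of log2(CPM + 1), replicate 2 minus replicate 1, the differences were −2.10 for Mir107, −2.16 for Mir103-2 and −1.52 for Mir103-1. The limit used for a difference was 1 in log2, which all 3 passed. Among the 703 genes with any read, 25 (3.56%) were lower in replicate 2 by at least this limit. The 280 genes with a mean of 10 CPM or more include Mir107 but neither Mir103 gene, and 13 (4.64%) of them were. Reads in 2 of the 3 genes were few, and with a pseudocount of 5 CPM Mir103-1 stood at −0.55, short of the limit.

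Across all genes the median difference was near 0, at 0.01 for the 280 genes, and Mir107 was the third lowest of them. Mir103-2 was the lowest of the 134 genes with a mean from 1 to 10 CPM, of which 7 (5.22%) passed the limit downward. The split of all passing genes depended on scaling, at 13 lower (4.64%) and 17 higher (6.07%) as scaled here, 17 and 12 with TMM factors, 17 and 8 with DESeq2 size factors, and 14 and 8 per all reads of the table. DESeq2 size factors moved the median of all genes to −0.12 and TMM factors to −0.09. Relative to the median of all genes, Mir107 stood at −2.11, a value that scaling a whole library hardly moves by construction. The plot of replicate differences places the family at the lower edge of the cloud at 3 very different levels.

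**Figure D3:**
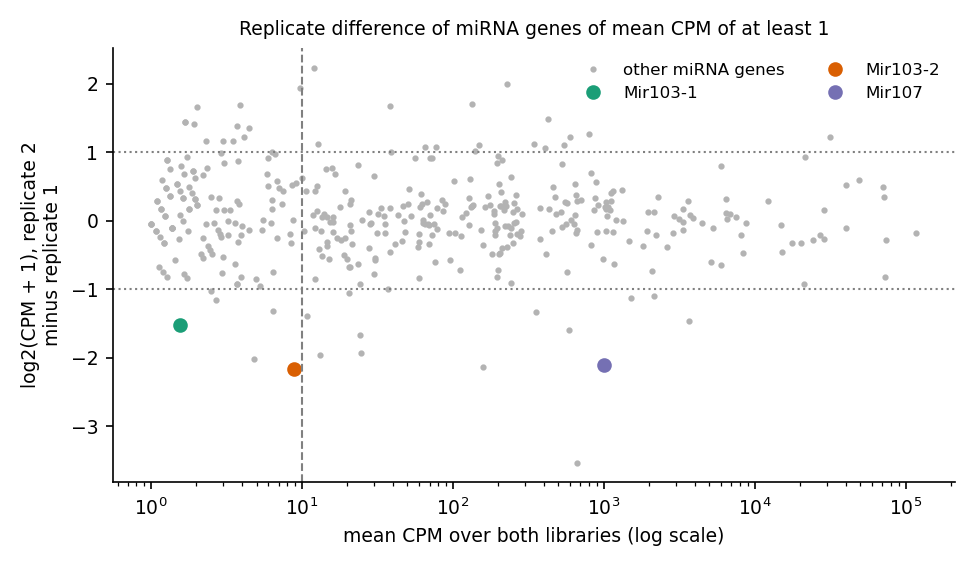
Replicate difference, log2(CPM + 1) of replicate 2 minus replicate 1, against mean CPM on a log axis for miRNA genes with a mean of 1 CPM or more, each point 1 gene. Dotted lines mark differences of −1 and 1 and the dashed line the minimum of 10 CPM; the 3 coloured members lie at −1.52, −2.16 and −2.10.

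In order of mean CPM, Mir107 stood between Mir93 at 1015 ± 98.6 and Mir15a at 988 ± 264 CPM. Mir615 (1028 ± 74.8) and Mir181c (918 ± 106.8) were the next on either side. None of these 4 differed from Mir107 beyond the replicate spread, which choosing them for a near mean fixed in advance. Because Mir107 itself varied so much, 152 of the 279 other genes of at least 10 CPM could not be ordered against it, from Mir153 at 65.4 to Mir30d at 6894 CPM. Its rank was 54 in replicate 1 and 106 in replicate 2.

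Neighbours of Mir103-2 in that order were Mir218-1 at 9.64, Mir8114 at 9.12, Mir592 at 8.73 and Mir3064 at 8.65 CPM. Those of Mir103-1 were Mir3088, Mir490, Mir3097 and Mir302d, between 1.56 and 1.62 CPM. None of these 8 was ordered against its member beyond the replicate spread, which choosing them for a near mean fixed in advance. Mir592 stood at 8.70 and 8.75 CPM, so at the same mean its libraries lay far closer than those of Mir103-2. Mir218-1 went the other way, from 3.39 CPM in replicate 1 to 15.9 CPM in replicate 2. Mir3097 held the same values as Mir103-1 in both libraries.

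Likeness to Mir107 was taken as the distance between replicate differences, over 2 libraries only, among genes of at least 100 CPM. Mir122, a hepatocyte miRNA, was nearest at −2.14, with 257 CPM in replicate 1 and 57.7 CPM in replicate 2. Mir34c, of the p53-responsive family, followed at −1.60 with 890 and 293 CPM. The erythroid Mir451a came next at −1.46 with 5351 and 1949 CPM. Mir298 was at −1.33 with 507 and 201 CPM, and Mir29c at −1.12 with 2087 and 957 CPM. All 5 were lower in replicate 2, which the rule itself fixed.

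The erythroid Mir451a and the hepatocyte Mir122 were thus lower in the same library as the family. The erythroid list of 4 genes summed to 5557 CPM in replicate 1 and 2151 CPM in replicate 2, nearly all from Mir451a. Its other members were Mir144 at 191 and 187 CPM, Mir486 at 14.2 and 12.6 CPM and Mir3107 at 0.590 and 1.95 CPM. The liver list held Mir122 alone. The part of these cell types in the difference of Mir107 was not tested.

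The AGCAGC hexamer links the family to the wider mir-15 and mir-107 group, whose members are known for roles in cell division, metabolism and angiogenesis. In miR-103-3p and miR-107-3p it starts at base 1, and in the relatives with it at base 2, so the seeds are offset by 1 base. Relatives from other loci are shown with the hexamer in capitals.
miR-15a-5p: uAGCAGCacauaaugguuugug
miR-16-5p: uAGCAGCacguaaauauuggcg
miR-195a-5p: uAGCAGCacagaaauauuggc
miR-322-5p: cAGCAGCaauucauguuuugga
miR-503-5p: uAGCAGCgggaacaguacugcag

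Of the 15 symbols listed for this group, 13 were separate genes in the tables, 9 reached 10 CPM and 2, Mir195b and Mir497b, had 0 reads in both libraries. Mir322, the rodent counterpart of human miR-424, led at 22397 and 17849 CPM. Mir16-1 (1203 and 1215 CPM), Mir15a (1175 and 802 CPM) and Mir195a (470 and 1129 CPM) had means of 1209, 988 and 800 CPM. These lay near the mean of Mir107, 1008 CPM, but not near it in each library. Each was below Mir107 in replicate 1 (1634 CPM) and above it in replicate 2 (381 CPM). Mir15b, Mir497, Mir16-2 and Mir503 had means between 205 and 256 CPM. Of the 9, Mir107 alone was at or below −1, and Mir195a at 1.26 alone was at or above 1. Among all 280 genes, 4.64% were lower and 6.07% higher by the limit. The other 8 genes had a median difference of −0.01, beside 0.01 over all 280 genes.

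**Figure D4:**
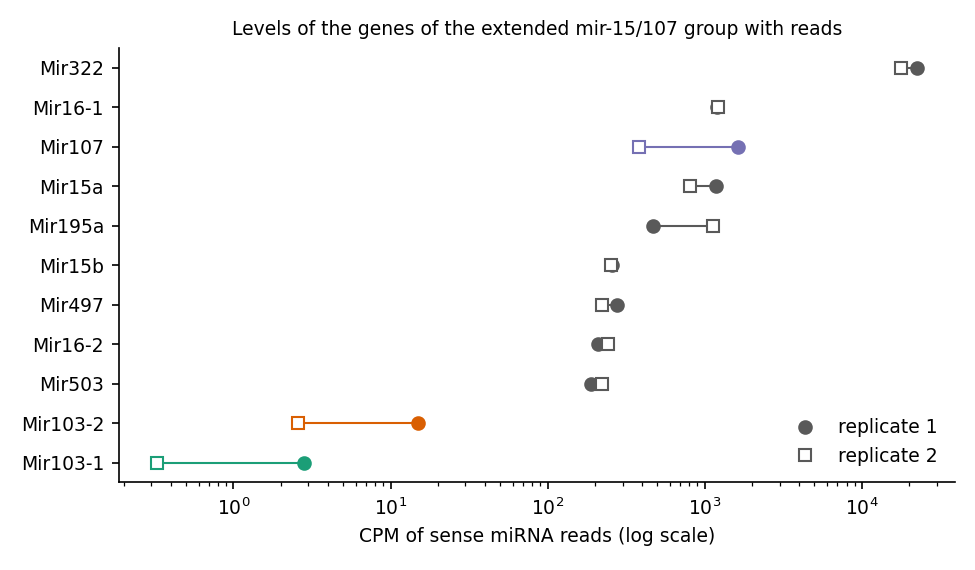
CPM on a log axis of each gene of the mir-15 and mir-107 group with reads, replicate 1 as a filled circle and replicate 2 as an open square joined by a line. The lines of Mir107, Mir103-2 and Mir103-1 are the longest and run from 1634 to 381, from 15.04 to 2.59 and from 2.80 to 0.324 CPM.

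Mir103-1 and Mir103-2 belong to a class of genes whose mature sequence is also made at another locus. RefSeq gave 94 such genes, of which 39 had 0 reads in both libraries and 37 reached 10 CPM. Mir103-2 was 39th and Mir103-1 48th of the 94 by mean CPM. Other genes of the class kept more reads, such as Mirlet7f-2 at 3905 and Mir16-1 at 1209 CPM. Among the 37, the median replicate difference was 0.08, and 1 gene, Mir199b, was lower by the limit while 2 were higher, beside 4.64% lower and 6.07% higher among all 280 genes. Neither Mir103 gene is among the 37.

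A list chosen after the values were seen held the genes with an arm that another hairpin shares over its first 19 bases or more, as for miR-107-3p. Of these 127 genes 39 reached 10 CPM, with a median difference of 0.08 (from −2.10 to 2.24), and 2 of the 39, Mir107 and Mir199b, were lower by the limit, a share near the 4.64% of all 280 genes. A second list, also chosen after the values were seen, held the 10 genes at 10 CPM or more with an arm that is told apart only by a base among its last 4. The 9 besides Mir107 ran from −0.84 for Mir450b to 1.06 for Mir101b. Of these 9, 3 were below 0 and 6 above. Mir450b stood at 77.2 and 42.8 CPM, Mir376b at 139 and 84.0 CPM, and Mir23a at 38635 and 58734 CPM. The part of read assignment in the difference of Mir107 was not tested.

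Of all 2202 miRNA genes, 733 lay in same-strand introns of coding genes, and of the 280 that reached 10 CPM, 89 did. The median difference of these 89 was −0.02, beside 0.01 for the 191 others. Of the 89, 3 were lower by the limit, Mir107, Mir3105 and Mir511, and 7 were higher, beside 4.64% and 6.07% of all 280. Among the 191, 10 were lower and 10 higher.

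The metabolic list was chosen with earlier results of these data known, so its values are a description. Of its 11 miRNA genes, listed for lipid, cholesterol or insulin metabolism, 10 reached 10 CPM and Mir802 had 0 reads in both libraries. Their median difference was −0.23, beside 0.01 over all 280 genes, with 3 of the 10 lower by the limit and 1 higher, beside 4.64% and 6.07% of all 280. The lower ones were Mir122, Mir29c and Mir34a, the last at 2908 and 1364 CPM. Mir370 was the higher one, at 62.5 and 206 CPM. Mir33, which lies in Srebf2 and acts on cholesterol export, stood at 11.4 and 20.1 CPM. Mir143 at 28851 and 25009 CPM, Mir29a at 8773 and 8591 CPM and Mir378a at 3142 and 3542 CPM were the most abundant of the list and lay within 0.21 of 0 in log2.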

How the data were processed

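The authors deposited 1 table of read counts per library, made on GENCODE M21 and mm10 per the text deposited beside each table, with mapping lines and columns for both strands, the sense strand and the opposite strand. Columns have no header, and their layout and totals showed which is sense. For the aligner, trimming and allowed mismatches, settings were not given in the sources used. All 2202 gene identifiers matched the annotation. Sense counts were scaled to CPM, leaving out the mapping lines. Differences used a pseudocount of 1 CPM, a limit of 1 in log2 and a minimum mean of 10 CPM; 2 genes were ordered when both libraries agreed in sign and both gaps exceeded either replicate difference. With 1 group no test was made. Hairpins came from GENCODE and mature sequences from RefSeq (1018 gene symbols matched). TMM factors came from edgeR 4.0.16 and size factors from DESeq2 1.42.0, and the rest from Python 3.11.15 with scipy 1.17.1. The fold limit and ratio interval were tested on simulated counts with counting error only, and the ordering and sequence-matching rules on made-up examples. Other steps were not tested this way. Named genes were the members, the mir-15/107 group, 2 neighbours by mean CPM on each side and the 5 genes most like Mir107. Further genes were named from the other lists, some by level and some after their replicate differences were seen. Members and lists were chosen with earlier results of these data known. The genome search was not run.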

Additional observations from a re-analysis of the deposited data

Results flagged for a closer look

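Reads mapped to several places lie outside the counts used here. They numbered 4001595 in replicate 1 and 2084009 in replicate 2, which is 357 and 1760 for each read assigned to a Pank miRNA gene in the same library. Their genes of origin are not recorded in these counts.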

How the results depend on the processing

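Mir107 kept its side of the limit under all 6 alternatives, with log2 differences from −2.23 to −2.09, and so did Mir103-2, from −2.33 to −1.40. Mir103-1 ranged from −2.002 to −0.55, and missed the limit only with a pseudocount of 5 CPM (−0.55), where its 19 reads and 1 read weigh less. Without replicate 1 or 2, mean levels were 381 and 1634 CPM for Mir107, 2.59 and 15.04 CPM for Mir103-2, and 0.324 and 2.80 CPM for Mir103-1, so replicate 1 decides each mean. Per all reads of the table the means were 510, 4.48 and 0.796 CPM. Genes lower in replicate 2 numbered 13, or 25 with no minimum and 8 at 100 CPM. Genes higher numbered 17, or 33 with no minimum, 11 at 100 CPM, 8 with DESeq2 size factors and 8 per all reads. The minimum changes how many genes are counted, and the cause of the other shifts was not tested. Of all hairpin windows, 15.2% in Mir103-1, 19.7% in Mir103-2 and 10.4% in Mir107 were shared. Within 1 mismatch these shares were 33.3%, 45.5% and 37.3%, and the share was 100% on both 5p arms of the Mir103 genes and on both arms of Mir107. With windows of 20 bases alone, 23.9% of the Mir103-2 hairpin was shared. No paired analysis was possible because the samples form 1 group. The genome search was not run. Depth limits Mir103-1 and Mir103-2, which held 1 and 8 reads in replicate 2.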
